A study of Mus musculus with 18 samples.

Results

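ISG15 conjugation genes and the interferon-induced effectors Rsad2, Cmpk2, Bst2, Mx1 and Mx2 were followed in 18 polyadenylated RNA libraries of the mouse prostate cancer line MPC3. They are 10 genes picked by symbol and matched to Ensembl identifiers, of the 47643 genes in the deposited count table. All 10 passed the filter on low counts that left 14309 genes for testing. The libraries fall into 3 groups of 6: a control group, spelled plko in the titles, and a group for each of 2 hairpins against Rnf185, shRNF185.1 and shRNF185.3, both labelled RNF185 KD. The labels place replicates 1 and 2 of every group in batch 1, replicates 3 and 4 in batch 2, and replicates 5 and 6 in batch 3. Nothing in the labels says that the numbered libraries came from separate cultures or infections, so p-values measure the spread between these libraries, which may be technical. Per the file names the deposited tables had been adjusted for batch by ComBat-Seq, so that spread is what the adjustment left.

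The deposited adjusted counts summed to about 22027400 to 43379700 per library. Rnf185, which encodes a ubiquitin ligase of the endoplasmic reticulum, was at 33.6 to 38.4 CPM (counts scaled to a common library size of 1e6) in control and at 5.19 to 6.80 CPM in the 12 hairpin libraries, so no library went against its label. Of the epithelial markers, Krt8 averaged 1185 CPM and Krt18 350 CPM in control, while Epcam was near 0. Of 6 epithelial markers tested in edgeR, 4 were called lower and 1 higher with shRNF185.1 (Krt8, Krt18, Cdh1 and Krt14 lower, the basal marker Trp63 higher). With shRNF185.3, 3 were lower (Krt8, Krt18 and Cdh1) and again Trp63 was higher. The sum of the 8 listed epithelial markers was 1699 to 2520 CPM in control, 1015 to 1813 CPM under shRNF185.1 and 1169 to 1385 CPM under shRNF185.3. Of the prostate markers, Hoxb13 averaged 56.0 CPM in control, while Pbsn was at 0. Fibroblast genes were also present in control, with Pdgfrb at 155 CPM and Col1a2 at 370 CPM. Of 5 fibroblast markers tested, Pdgfrb and Col1a1 were called higher and Dcn and Col1a2 lower with shRNF185.1. With shRNF185.3, 4 were called higher (Pdgfra, Pdgfrb, Col1a1 and Col1a2) and 0 lower, against the same shares of all genes as above. The 6 listed fibroblast markers summed to 639 to 766 CPM in control and 617 to 935 CPM under shRNF185.1, and to 1071 to 1540 CPM under shRNF185.3, which did not overlap control. The part of these marker differences in the results was not tested. Leukocyte markers, 8 genes, summed to 2.44 to 5.19 CPM in control. Their sums were 1.82 to 3.13 CPM in the shRNF185.1 group and 2.33 to 3.72 CPM in the shRNF185.3 group. Most of that was Cd68, Cd3e was at 0 in all libraries, and Ptprc had at most 3 counts in any library. In bulk RNA, fewer cells of a type and less RNA per cell cannot be told apart.

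ISG15 is a small ubiquitin-like protein that cells make in response to type I interferon and attach to other proteins. The attachment runs through an activating enzyme (Uba7), a conjugating enzyme (Ube2l6) and, in mouse cells, mainly the ligase Herc6, and Usp18 takes ISG15 off again and also dampens signalling at the interferon receptor. The effectors act on viruses in other ways. Viperin (Rsad2) makes an altered nucleotide that stops viral RNA synthesis, Cmpk2 is a mitochondrial nucleotide kinase, tetherin (Bst2) holds budding virions on the cell surface, and Mx1 and Mx2 are dynamin-like GTPases. Interferon signalling reaches such genes through transcription factors that bind the interferon-stimulated response element (ISRE).

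Promoter windows of 300 bases, from 250 before to 50 after the start of transcription, were taken from RefSeq on GRCm38.p6, where 7 of the 10 genes matched by symbol. Usp18, Mx1 and Mx2 are not among them. The core of the ISRE was searched on both strands as GAAA, any 2 bases and GAAA again. It was found in 3 of the 7 windows, those of Isg15, Bst2 and Rsad2, and in 3.44% of all 32851 promoter windows. The windows with a match and that of Cmpk2, the neighbour of Rsad2, are shown 5′ to 3′ on the gene's strand, with matches in capitals.

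Isg15 (chr4:156200769-156201068, minus strand): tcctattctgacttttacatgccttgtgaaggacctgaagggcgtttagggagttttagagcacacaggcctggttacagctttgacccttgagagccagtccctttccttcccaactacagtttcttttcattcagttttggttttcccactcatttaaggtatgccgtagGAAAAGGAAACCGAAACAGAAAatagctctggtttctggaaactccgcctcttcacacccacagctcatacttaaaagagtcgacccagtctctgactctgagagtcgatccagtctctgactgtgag

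Bst2 (chr8:71537423-71537722, minus strand): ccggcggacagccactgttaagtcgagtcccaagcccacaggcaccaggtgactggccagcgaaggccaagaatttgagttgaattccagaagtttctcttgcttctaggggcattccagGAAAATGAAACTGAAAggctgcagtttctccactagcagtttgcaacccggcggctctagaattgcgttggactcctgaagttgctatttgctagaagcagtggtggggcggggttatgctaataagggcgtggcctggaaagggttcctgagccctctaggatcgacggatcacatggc

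Rsad2 (chr12:26456403-26456702, minus strand): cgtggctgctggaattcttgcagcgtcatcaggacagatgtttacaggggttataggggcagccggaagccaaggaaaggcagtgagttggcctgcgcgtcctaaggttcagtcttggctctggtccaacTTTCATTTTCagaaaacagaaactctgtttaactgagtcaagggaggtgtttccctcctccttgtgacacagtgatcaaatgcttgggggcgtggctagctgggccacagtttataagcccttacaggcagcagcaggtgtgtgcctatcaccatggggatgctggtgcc

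Cmpk2 (chr12:26468965-26469264, plus strand): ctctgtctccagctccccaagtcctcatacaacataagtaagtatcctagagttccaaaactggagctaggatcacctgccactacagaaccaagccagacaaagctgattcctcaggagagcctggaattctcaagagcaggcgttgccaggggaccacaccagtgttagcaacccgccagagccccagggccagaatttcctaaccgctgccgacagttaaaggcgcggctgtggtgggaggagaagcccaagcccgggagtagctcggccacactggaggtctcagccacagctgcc

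In Isg15 the capitals are 3 overlapping matches, beginning 78, 72 and 66 bases before the start. Those of Bst2 are 2 overlapping matches, beginning 130 and 124 bases before it. The match in Rsad2 lies on the opposite strand, 120 bases before the start. A second interferon motif, the gamma-activated site TTCNNNGAA, which reads the same on both strands, occurred in 1 of the 7 windows, that of Bst2. It begins 136 bases before the start, overlaps the ISRE match there, and occurs in 8.30% of all windows. A match describes letters and not binding, and the lack of one in Cmpk2, Herc6, Uba7 and Ube2l6 says only that these letters are not in this window.

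The first comparison asked how these genes differ between each knockdown and control. Messenger RNA of 7 genes rose with both hairpins: Isg15, Uba7, Herc6, Usp18, Rsad2, Cmpk2 and Mx2. Bst2 and Mx1 rose with shRNF185.3 but did not pass the test with shRNF185.1, and Ube2l6 did not pass with either. A gene was called at a Benjamini-Hochberg adjusted p under 0.05 in edgeR's quasi-likelihood test. With shRNF185.1 there were 7 calls of 10, all higher, where 28.9% of all tested genes were called, 14.6% higher and 14.3% lower. With shRNF185.3 there were 9 calls of 10, all higher, where 27.3% of all genes were called, 14.2% higher and 13.1% lower. That model has no term for batch. With batch as a covariate 7 genes were called with shRNF185.3, where 22.8% of all genes were, and with the libraries of a group summed by batch 5 were, where 20.1% of the genes tested in that fit were. Both alternatives kept 7 calls with shRNF185.1, where 24.9% and 22.6% of the genes tested were called. For the mean of both hairpins there were 8 calls, all higher, where 32.9% of all genes were called, 16.1% higher and 16.8% lower. In that contrast Bst2 passed at a log2 fold change of 2.52 (edgeR adjusted p 0.0146), and Mx1 at 1.06 (0.0796) and Ube2l6 at 0.63 (0.129) did not. The 7 genes called higher with both hairpins compare with 8.99% of all genes. The median log2 fold change of the 10 genes was 1.99 for shRNF185.1 and 1.97 for the other hairpin, and that of all 14309 genes was -0.02 in each comparison. Both comparisons use the same 6 control libraries.

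**Figure D1:**
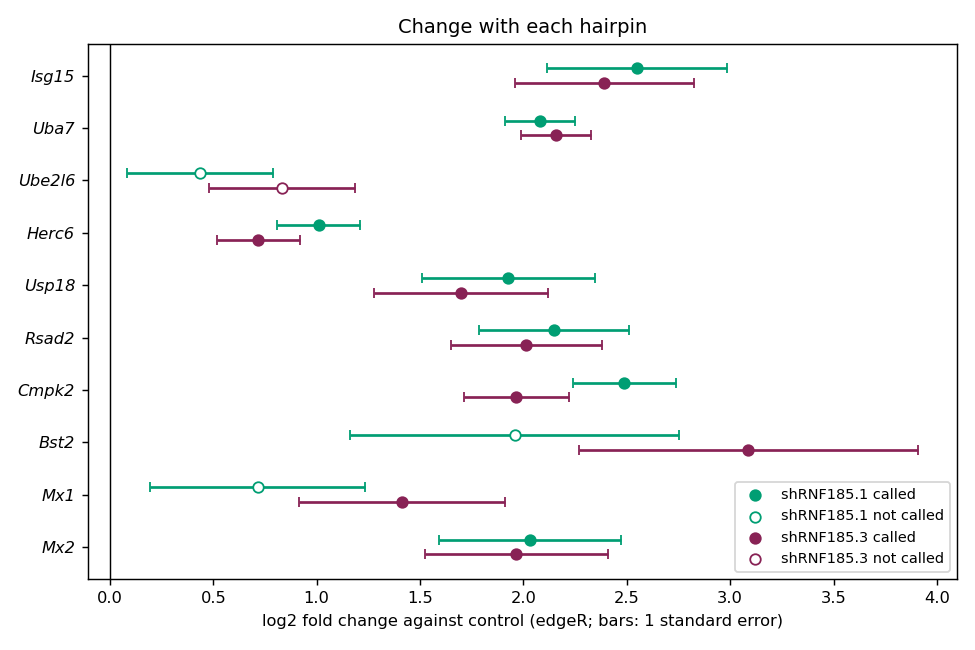
Log2 fold change against control on the x axis for each gene and hairpin, with 1 standard error as bars. Filled points passed the test and open points did not. Uba7 has the narrowest bars, at 2.08 and 2.16, and Bst2 the widest, at 1.96 and 3.09.

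Isg15 itself (ENSMUSG00000035692, chromosome 4, 156199424 to 156200818, minus strand, 756 exonic bases) had a lowest, median and highest level of 0.847, 2.11 and 5.49 CPM in control. Under shRNF185.1 these were 9.15, 13.2 and 19.0 CPM, and under shRNF185.3 they were 4.48, 8.99 and 24.4 CPM. All 6 shRNF185.1 libraries lay above the highest control, and 5 of 6 did with shRNF185.3, where replicate 4 fell within the control range. The gene rose 5.86-fold with shRNF185.1 (log2 fold change 2.55, SE 0.43, edgeR adjusted p 0.000205) and 5.25-fold with shRNF185.3 (2.39, SE 0.43, adjusted p 0.000401).

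Uba7, the activating enzyme (ENSMUSG00000032596, chromosome 9, 107975505 to 107984060, plus strand, 6692 exonic bases), had the smallest standard errors of the 10. Its lowest, median and highest levels were 1.95, 3.33 and 4.02 CPM in control. The shRNF185.1 group had 9.81, 13.5 and 16.4 CPM, and the shRNF185.3 group 10.9, 13.5 and 18.5 CPM. Every library of either hairpin was above every control. The log2 fold changes were 2.08 (SE 0.17, edgeR adjusted p 4.48e-08) and 2.16 (SE 0.17, adjusted p 4.00e-08). Of its 75-base transcript windows, 2.08% also occur in Gm20661, an overlapping gene on the same strand, so some reads could be assigned to either.

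Ube2l6, the conjugating enzyme (ENSMUSG00000027078, chromosome 2, 84798828 to 84810335, plus strand), ran from 1.98 CPM through a median of 9.60 CPM to 11.9 CPM in control. With shRNF185.1 it ran from 6.92 through 10.3 to 15.3 CPM, and with shRNF185.3 from 10.3 through 12.1 to 21.3 CPM. The groups overlapped, because 4 of the 6 controls were at 8.68 to 11.9 CPM and the 2 of batch 3 at 1.98 and 2.81 CPM. The log2 fold changes of 0.44 (SE 0.35, 95% interval -0.26 to 1.13, edgeR adjusted p 0.380) and 0.83 (SE 0.35, 0.14 to 1.52, adjusted p 0.0873) did not pass the test. With shRNF185.3 it did pass in limma on log2 of CPM plus 1 (adjusted p 0.0468), in limma on log2 of CPM plus 0.1 (adjusted p 0.0493) and in limma-voom (adjusted p 0.0445).

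Herc6, the ligase (ENSMUSG00000029798, chromosome 6, 57581000 to 57664632, plus strand), rose the least of the genes called with both hairpins. Its lowest, median and highest levels were 4.55, 9.81 and 12.9 CPM in control. The shRNF185.1 group had 16.6, 18.5 and 20.2 CPM, and the shRNF185.3 group 11.7, 13.1 and 23.2 CPM. No shRNF185.1 library overlapped the controls, while 3 of the 6 shRNF185.3 libraries did. It rose 2.01-fold (log2 fold change 1.01, SE 0.20, edgeR adjusted p 0.000786) and 1.64-fold (0.72, SE 0.20, adjusted p 0.0113). Its counts are less certain than the others, because other genes hold 11.3% of its 75-base windows. Gm45193 on the same strand covers 13.7% of its exons.

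Usp18, which removes ISG15 (ENSMUSG00000030107, chromosome 6, 121245906 to 121270917, plus strand), was at 0.282, 1.22 and 3.06 CPM as lowest, median and highest in control. The corresponding values were 2.09, 6.19 and 8.75 CPM for shRNF185.1 and 2.80, 4.02 and 8.97 CPM for shRNF185.3. In each hairpin group 5 of 6 libraries were above the highest control. The log2 fold changes were 1.93 (SE 0.42, edgeR adjusted p 0.00177) and 1.70 (SE 0.42, adjusted p 0.00519). Gm44148 covers 4.44% of its exonic length on the opposite strand. The libraries were directional per the labels, but whether the counting used strand is not given in the sources used here.

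Rsad2 and Cmpk2 are neighbours on chromosome 12 that point away from each other, with starts 12.8 kb apart. Rsad2 (ENSMUSG00000020641, 26442746 to 26456452, minus strand) had a lowest, median and highest level of 0.126, 0.440 and 0.868 CPM in control, or 4 to 24 counts. In the hairpin groups it was at 1.01, 1.999 and 2.89 CPM (shRNF185.1) and at 1.15, 1.70 and 3.16 CPM (shRNF185.3). Cmpk2 (ENSMUSG00000020638, 26469204 to 26479837, plus strand) was at 0.157, 0.492 and 0.661 CPM in control. Its hairpin groups were at 1.95, 2.81 and 3.06 CPM (shRNF185.1) and at 1.12, 1.83 and 2.78 CPM (shRNF185.3). For both genes the hairpin libraries did not overlap the controls. Rsad2 rose by a log2 fold change of 2.15 (SE 0.36, edgeR adjusted p 0.000182) and 2.01 (SE 0.36, adjusted p 0.000383). Cmpk2 rose by 2.49 (SE 0.25, adjusted p 6.08e-07) and 1.97 (SE 0.25, adjusted p 1.18e-05).

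Bst2 (ENSMUSG00000046718, chromosome 8, 71534255 to 71537456, minus strand, 903 exonic bases) had the largest standard errors of the 10. Its lowest, median and highest levels were 4.39, 13.4 and 36.5 CPM in control. They were 23.7, 70.6 and 114 CPM in the shRNF185.1 group, and 16.9, 49.1 and 681 CPM in the shRNF185.3 group. In each hairpin group 4 of 6 libraries lay above the highest control. The value of 681 CPM belongs to shRNF185.3 replicate 5, with 16396 counts, and the next library of that group was at 107 CPM. The log2 fold change was 1.96 with shRNF185.1 (SE 0.80, edgeR adjusted p 0.0726) and 3.09 with shRNF185.3 (SE 0.82, adjusted p 0.00847). Without shRNF185.3 replicate 5 they were 1.96 (adjusted p 0.0101) and 1.43 (adjusted p 0.0712), so that the call moved from one hairpin to the other. The spread is estimated over all 3 groups, and with control and shRNF185.1 alone in the fit Bst2 passed as well, at 1.96 (adjusted p 0.0122). In that replicate, 1 of 14309 genes reached 4 times the next library of its group, Bst2 itself.

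Mx1 and Mx2 lie on chromosome 16 with starts 72.4 kb apart. They share 73 windows of 75 bases, which is 1.71% of the windows of Mx1 and 2.01% of those of Mx2. Many laboratory mouse strains carry defective alleles of both, and the annotation lists Mx2 as a polymorphic pseudogene. The strain behind MPC3 is not given in the labels. Mx1 (ENSMUSG00000000386, 97447035 to 97462907, minus strand) had a lowest, median and highest level of 0.0628, 0.523 and 0.831 CPM in control. The shRNF185.1 group had 0.0388, 0.936 and 1.35 CPM, and the shRNF185.3 group 0.679, 1.19 and 2.28 CPM. Counts were between 1 and 55 per library, and the groups overlapped. Its log2 fold change of 0.71 with shRNF185.1 did not pass (SE 0.52, edgeR adjusted p 0.323), and that of 1.41 with shRNF185.3 did (SE 0.50, adjusted p 0.0422). The latter call was lost on leaving out any of 10 libraries: replicates 4, 5 and 6 of control, 1 and 3 of shRNF185.1, and 1, 3, 4, 5 and 6 of shRNF185.3.

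Mx2 (ENSMUSG00000023341, 97535308 to 97560900, plus strand) was at 0.126, 0.414 and 0.785 CPM in control as lowest, median and highest. The shRNF185.1 group had 0.775, 1.83 and 3.12 CPM, and the shRNF185.3 group 0.580, 1.87 and 2.99 CPM. Of the 6 libraries, 5 were above the highest control with shRNF185.1 and 4 with shRNF185.3. It rose by a log2 fold change of 2.03 (SE 0.44, edgeR adjusted p 0.00175) and 1.96 (SE 0.44, adjusted p 0.00259). Over the 10 genes, the 6 hairpin libraries lay entirely above the controls for 5 genes with shRNF185.1, where 7.02% of all tested genes did so. They did for 3 genes with shRNF185.3, against 7.6% of all genes, and for the same 3 genes (Uba7, Rsad2 and Cmpk2) all 12 hairpin libraries were above, against 4.22%.

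**Figure D2:**
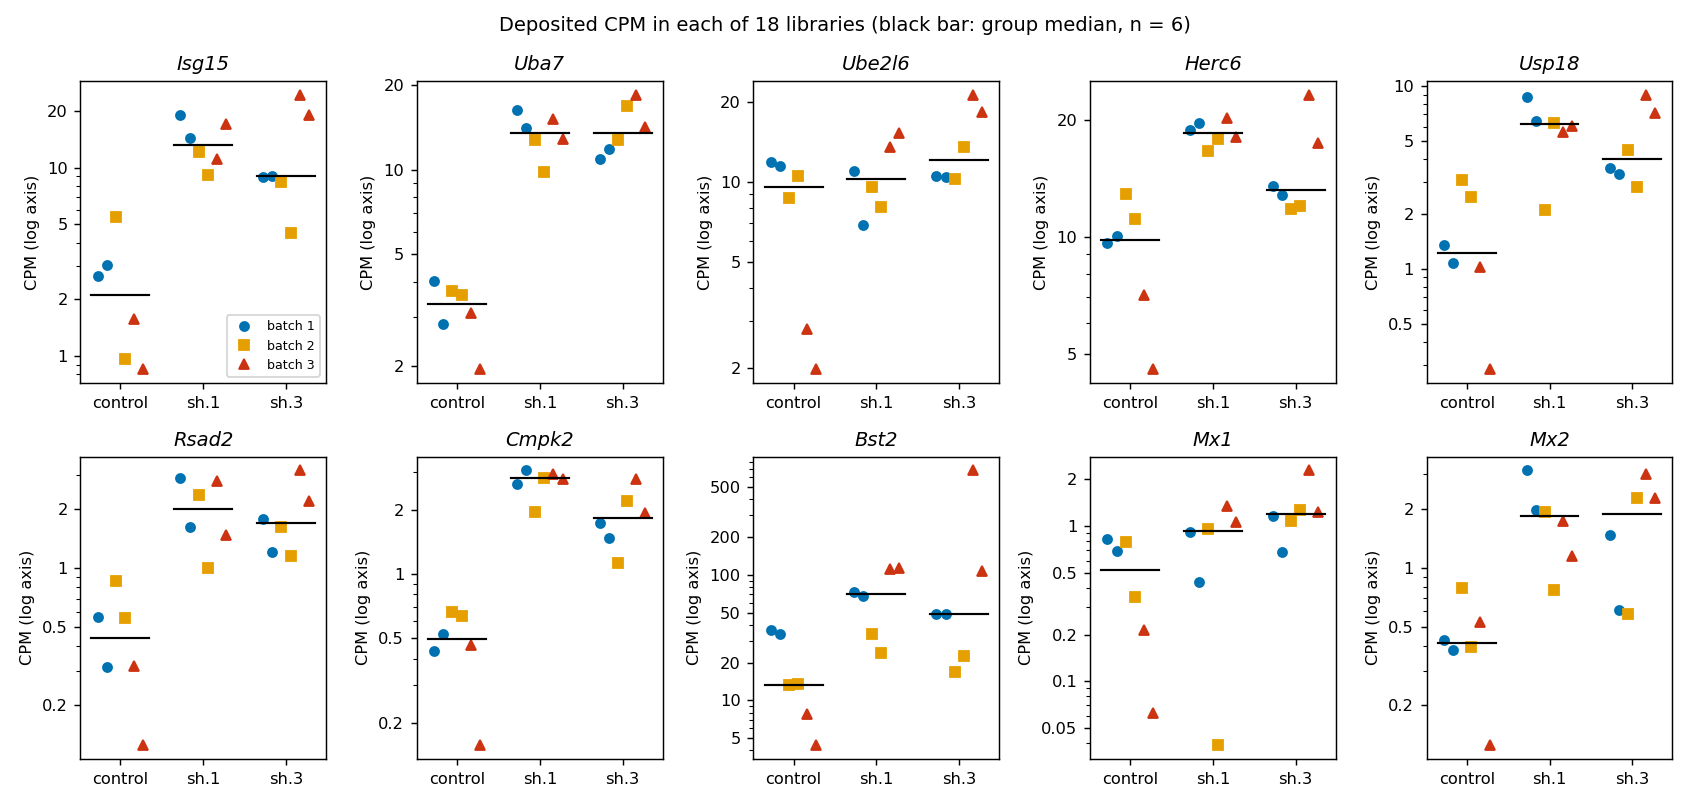
CPM on a log axis in each library, in 3 columns for control, shRNF185.1 (sh.1) and shRNF185.3 (sh.3), with the median of 6 libraries as a bar and the batch as colour and shape. Batch 3 libraries are the 2 lowest controls of Ube2l6, at 1.98 and 2.81 CPM, and the highest point of Bst2, at 681 CPM.

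The controls were not uniform. Their lowest library was the same for every gene, while the highest was not, being replicate 3 for Isg15 and replicate 1 for Uba7. Control replicate 6, a batch 3 library, was the lowest of the 6 controls for all 10 genes, which was so for 21.9% of all tested genes. The mean log2 CPM of the 10 genes was -0.49 in that library and 0.50 in replicate 5, also of batch 3, against 1.04 to 1.56 in the other 4 controls. In the hairpin groups the mean ran from 1.91 to 3.001 (shRNF185.1) and from 2.06 to 3.65 (shRNF185.3), so that every hairpin library was above every control. For all 10 genes the control mean was lowest in batch 3 and the mean over hairpin libraries highest in batch 3. The same held for 38.1% of all tested genes.

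Differences were therefore taken within each batch, as the mean log2 CPM of a hairpin's 2 libraries minus that of the 2 controls. In batch 3 all 10 genes were higher with each hairpin, with a median difference of 2.81 for shRNF185.1 and 3.10 for shRNF185.3. In batch 1 the medians were 2.17 and 1.28, with 8 and 9 genes higher. In batch 2 they were 1.05 and 0.93, again with 8 and 9 genes higher. Both libraries of shRNF185.1 were above both controls for 8 genes in batch 1, 6 in batch 2 and 10 in batch 3, while 27.6%, 32.3% and 28.1% of all genes met that. With shRNF185.3 the numbers were 8, 5 and 10 genes, against 24.1%, 25.3% and 30.5%. The median difference of all genes was between -0.01 and 0.00 in each of these 6 comparisons.

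For Ube2l6 the differences in batches 1, 2 and 3 were -0.41, -0.13 and 2.58 for shRNF185.1 and -0.15, 0.30 and 3.03 for shRNF185.3. For Bst2 they were 1.01, 1.08 and 4.25 for shRNF185.1 and 0.49, 0.54 and 5.51 for shRNF185.3. In Mx1 they were -0.23, -0.84 and 2.703, and then 0.21, 1.05 and 3.17. Uba7 varied least, at 2.16, 1.60 and 2.48 for shRNF185.1 and 1.74, 1.99 and 2.695 for shRNF185.3. Isg15 was higher in every batch, at 2.51, 2.14 and 3.51 and at 1.65, 1.37 and 4.14, as were Rsad2, at 2.18, 1.07 and 2.92 and at 1.65, 0.90 and 3.29, and Cmpk2, at 2.41, 1.75 and 3.07 and at 1.61, 1.202 and 2.78. Herc6 with shRNF185.3 was at 0.42, -0.01 and 1.81, so that its change there lay in batches 1 and 3.

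**Figure D3:**
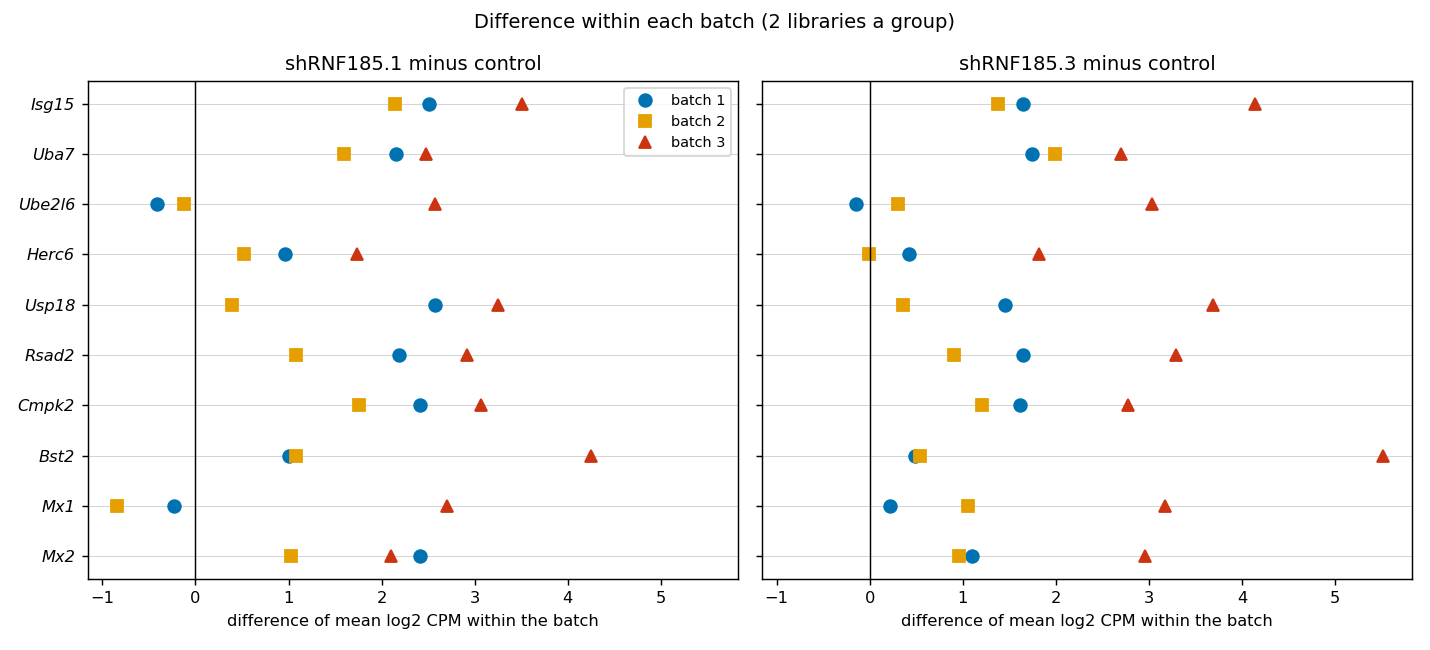
Difference of mean log2 CPM from control within each batch on the x axis, for shRNF185.1 (left) and shRNF185.3 (right), with 2 libraries a group and batch. Batch 3 is the rightmost point in every row except Mx2 with shRNF185.1, where batch 1 is at 2.42 and batch 3 at 2.11.

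Whether the knockdown effect differed between batches was tested in edgeR by the interaction of group and batch. It passed for Ube2l6 (adjusted p 0.000400), Herc6 (0.00475), Bst2 (0.00555) and Usp18 (0.0282), 4 of 10 genes, against 9.81% of all genes. The result for Usp18 was lost on leaving out control replicate 3, 4 or 6, shRNF185.1 replicate 1, or shRNF185.3 replicate 2 or 5, with adjusted p-values of 0.0507 to 0.0800. That for Isg15 (adjusted p 0.103) passed without control replicate 3 (0.0353) or 4 (0.00992), and that for Mx1 (0.225) without shRNF185.1 replicate 3 (0.0284). For the mean of both hairpins, the effect was larger in batch 3 than in batch 2 for 6 genes (Isg15, Usp18, Herc6, Ube2l6, Rsad2 and Bst2), where 22.3% of all genes differed between these batches. It was larger in batch 3 than in batch 1 for Herc6, Ube2l6 and Bst2, where 1.3% of all genes differed. Between batches 2 and 1, 0 of the 10 passed, 1 had an unadjusted p under 0.05 in the same edgeR test, and 1.07% of all genes differed. The deposited counts had been adjusted for batch with ComBat-Seq before these tests, and the fits below that leave out a batch use the same adjusted counts. Over all 6 libraries of a batch, the mean log2 CPM of Uba7 was 3.08, 3.09 and 3.06 in batches 1, 2 and 3, and that of Herc6 3.77, 3.76 and 3.71, while that of Bst2 was 5.63, 4.29 and 5.82. The part of the adjustment in the batch pattern was not tested.

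With batch 3 left out, 7 of the 10 genes were called with shRNF185.1, where 20.3% of all genes were, and the same 7 as with all batches: Isg15 at 2.21 (edgeR adjusted p 0.00195), Uba7 at 1.91, Herc6 at 0.74, Usp18 at 1.56, Rsad2 at 1.78, Cmpk2 at 2.21 and Mx2 at 1.99. With shRNF185.3, 4 of the 9 calls were left, where 17.4% of all genes were called. These were Uba7 at 1.90 (adjusted p 2.17e-05), Cmpk2 at 1.54 (0.000859), Rsad2 at 1.33 (0.0202) and Isg15 at 1.39 (0.0324). Herc6 was then at 0.20 (adjusted p 0.180), Usp18 at 0.83 (0.184), Mx2 at 1.35 (0.0944), Mx1 at 0.69 (0.393) and Bst2 at 0.51 (0.509). With batch 1 left out, 5 genes were called with shRNF185.1, where 15.5% of all genes were, and Usp18 at 1.55 (edgeR adjusted p 0.0837) and Mx2 at 1.64 (0.0561) did not pass. With shRNF185.3, 6 were then called, where 14.9% of all genes were, and Usp18 at 1.77 (0.0530), Herc6 at 0.86 (0.0659) and Mx1 at 2.09 (0.0573) did not pass. With batch 2 left out, 7 and 8 genes were called, where 35.7% and 26.8% of all genes were, and Mx1 with shRNF185.3 at 1.56 (0.0551) did not pass.

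The hairpins were next compared with each other. In edgeR, 0 of the 10 genes differed between shRNF185.3 and shRNF185.1, where 14.7% of all tested genes did, 7.72% higher and 6.94% lower. At an unadjusted p under 0.05 there was 1, Cmpk2. DESeq2 and limma-voom called 0 of the 10, where they called 16.1% and 14.6% of all genes. Limma on log2 of CPM plus 1 called 1, Cmpk2, at -0.38 (adjusted p 0.0405), where it called 15.4% of all genes. Cmpk2 was lower with shRNF185.3 by 0.52 on the log2 scale (SE 0.22, 95% interval -0.95 to -0.09, edgeR adjusted p 0.130). For Uba7 the difference was 0.08 with an interval of -0.23 to 0.38, and for Isg15 -0.16 with an interval of -0.92 to 0.60. The interval for Bst2 was wide, -0.36 to 2.61 around 1.13. Without batch 3, Herc6 was lower with shRNF185.3 by -0.54 (adjusted p 0.00287).

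Levels of different genes were compared as CPM per kilobase of exonic length. In control, Bst2 had the highest median at 14.8 CPM per kb, followed by Ube2l6 at 4.81, Isg15 at 2.79, Herc6 at 1.06, Uba7 at 0.498 and Usp18 at 0.437 CPM per kb. Mx1, Cmpk2, Mx2 and Rsad2 followed at 0.138, 0.118, 0.115 and 0.102 CPM per kb, with ranges that overlapped throughout, so that no order could be given among them. Ube2l6, the second in control, had a control range of 0.990 to 5.98 CPM per kb that overlapped that of Isg15, at 1.12 to 7.27 CPM per kb. With shRNF185.1 the median of Isg15 was 17.4 CPM per kb and above that of Ube2l6 at 5.16 CPM per kb, and the ranges of 12.1 to 25.1 and 3.47 to 7.66 CPM per kb did not overlap. With shRNF185.3 the medians were 11.9 and 6.04 CPM per kb, and the ranges of 5.92 to 32.3 and 5.15 to 10.7 CPM per kb did overlap. In control the range of each gene overlapped that of the next in the order. Bst2 had the highest median of both hairpin groups as well, at 78.2 and 54.4 CPM per kb.

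**Figure D4:**
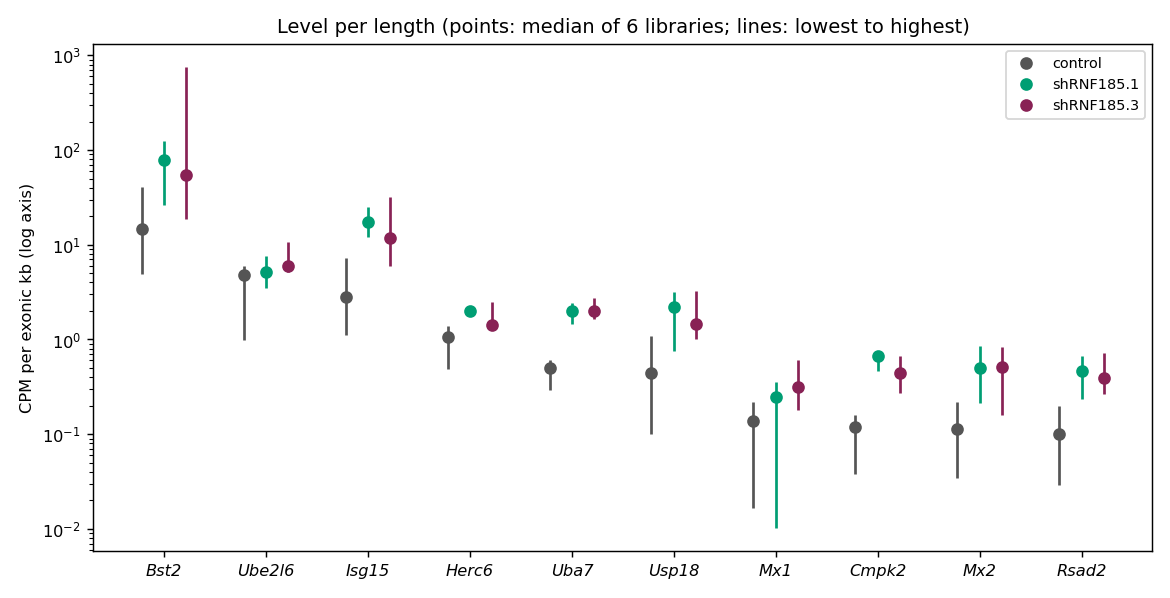
CPM per exonic kilobase on a log axis for each gene in the order of the control medians. Points are medians of 6 libraries and lines run from the lowest to the highest library. Bst2 is highest in each group, and Mx1, Cmpk2, Mx2 and Rsad2 are between 0.102 and 0.138 CPM per kb in control.

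The rest of the interferon pathway was read from the same fit. The share of all tested genes called was 14.6% (higher) and 14.3% (lower) for shRNF185.1, and 14.2% and 13.1% for shRNF185.3, against which the counts of each list stand. None of 21 interferon ligand genes passed the filter, and 12 had 0 counts in all libraries. Ifnb1 had at most 3 counts in a library, which is not enough to show a difference. Of 6 receptor genes, 2 were called higher and 1 lower with each hairpin. Ifnar1 and Ifnar2, which together form the type I receptor, averaged 58.8 and 29.8 CPM in control. Ifnar2 rose by a log2 fold change of 0.25 (edgeR adjusted p 0.00580) and 0.19 (0.0281), while Ifnar1 was at 0.10 (0.0916) and 0.07 (0.232). Of 15 signal transducers, shRNF185.1 gave 10 calls higher and 0 lower, and shRNF185.3 gave 6 higher and 2 lower. Jak1, a receptor kinase, rose by a log2 fold change of 0.25 (edgeR adjusted p 0.0139) and 0.23 (0.0239).

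Of 11 nucleic acid sensors and adaptors tested, 7 and 5 were called higher and 0 lower with the respective hairpins. Ddx58, the RNA sensor RIG-I, rose from 41.2 CPM to 72.6 and 69.2 CPM, by 0.82 (edgeR adjusted p 0.000819) and 0.75 (0.00181). Tmem173, which encodes STING, was at 0.16 (0.156) and 0.11 (0.338). Of 27 other interferon-stimulated effectors tested, 23 and 21 were called higher and 0 lower, with median log2 fold changes of 1.86 and 1.72. Lgals3bp rose from 16.3 CPM to 69.8 and 62.1 CPM, by 2.09 (adjusted p 2.19e-06) and 1.93 (5.77e-06), while Samhd1 was at -0.03 (0.809) and 0.16 (0.0692).

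Relatives of the 10 genes by enzyme or protein family had median changes near 0. Of 28 genes of ubiquitin-like conjugation, shRNF185.1 gave 1 call higher and 8 lower and shRNF185.3 gave 1 higher and 4 lower, with a median log2 fold change of -0.06 in each. The 9 and 5 calls of 28 compare with 28.9% and 27.3% of all genes called in either direction. Split by direction, higher calls made up 14.6% of all genes under shRNF185.1, and lower calls 14.3%. Under shRNF185.3 higher calls made up 14.2% and lower calls 13.1%. With shRNF185.1 the 8 lower calls of 28 were a larger share than the 14.3% of all genes. With shRNF185.3 the 4 lower calls of 28 were near the 13.1% of all genes. The call higher with shRNF185.1 was Trim25, itself an interferon-induced gene, at 0.39 (edgeR adjusted p 0.0451). Uba1, which activates ubiquitin itself, averaged 794 CPM in control and 777 and 800.1 CPM in the hairpin groups, at -0.03 (edgeR adjusted p 0.590) and 0.01 (0.824). Of 12 relatives of the effectors, such as other dynamins and nucleotide kinases, shRNF185.1 gave 1 higher and 3 lower. The other hairpin gave 2 higher and 1 lower. The shares of all genes called in either direction are again 28.9% and 27.3%, with the same split by direction. The dynamin Dnm2 was at 0.08 (0.172) and -0.04 (0.483).

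Within groups, the 10 genes varied together. Taken as deviations from the group means over 18 libraries, each gene's log2 CPM correlated with the mean of the other 9 at a Pearson r between 0.70 (Mx2 and Usp18) and 0.91 (Herc6). Among 11696 genes with a mean count of at least 50, those most like the mean of the 10 by the same measure were Trim25 (0.94), H2-K1 (0.93), Lgals9 (0.93), Hap1 (0.92), Fyco1 (0.92) and Parp10 (0.92). The points share libraries, depth and batch, and the values are descriptive. Likeness within groups did not go with a change between them in every case. Lgals9 rose by a log2 fold change of 0.96 (edgeR adjusted p 6.29e-05) and 0.94 (8.16e-05), while H2-K1 was at 0.53 (0.545) and 0.86 (0.313) and Hap1 at 0.27 (0.571) and -0.04 (0.945).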

How the data were processed

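RNA of 18 MPC3 libraries was measured by sequencing of polyadenylated RNA with single reads of 75 bases, per the labels' protocols. The submitters' processing notes name cutadapt 2.3, STAR 2.7.0d, RSEM 1.3.1 and the build mm10, with no role or order, and the gene annotation is not given in the sources used here. The authors deposited expected counts, and 0.466% of the values are not whole. Per the file names both tables were adjusted for batch by ComBat-Seq, and whether that adjustment was told the groups is not given in the sources used here. The deposited CPM are a scaled signal, equal to the counts divided by 1 effective library size per library, so their columns sum to 969986 to 1026394.

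Counts were rounded to whole numbers and analysed in R 4.3.3 with edgeR 4.0.16: filterByExpr with a minimum count of 10, TMM scaling, a mean per group over all 18 libraries, and quasi-likelihood F tests with Benjamini-Hochberg adjustment over all genes tested. Standard errors were derived from each F value and its fold change. Whole counts had been assumed in the design, and the same test was used on the rounded values. The interaction with batch used a mean per group and batch, and its comparisons of pairs of batches were added later. Log2 CPM used a prior count of 2. Alternatives used DESeq2 1.42.0 and limma 3.58.1. The edgeR code was tested on simulated data. Positions and lengths are those of GENCODE M21 on GRCm38, the genome also named mm10. The 10 genes and all lists were chosen with earlier results of these data known. All 10 genes are named. From each other list at most 4 genes with the highest mean CPM were eligible to be named, besides Ifnb1, Trp63, Cdh1 and the other marker genes named, chosen after their values were seen, and the 6 most alike genes by a correlation rule. The deposited adjusted counts summed to about 22027400 to 43379700 per library, which need not equal the number of reads. No pair of libraries within a group looked like a duplicate (chi-square per gene 7.64 to 84.4 over 45 pairs). The labels name no molecular identifiers. Some genes of the marker and pathway lists are not reported here.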

Additional observations from a re-analysis of the deposited data

Results flagged for a closer look

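Of 30 groups of 6 CPM values checked, 2 held a library far from the others by Dixon's criterion, where chance gives about 1 in 20 groups, or 1.5. Both were shRNF185.3 replicate 5. Its Bst2 level was 681 CPM, with the next library at 107 CPM, and its Mx1 level was 2.28 CPM, with the next at 1.28 CPM.

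The effect of the hairpins differed between batches by the edgeR interaction test for Usp18 (adjusted p 0.0282), Herc6 (adjusted p 0.00475), Ube2l6 (adjusted p 0.000400) and Bst2 (adjusted p 0.00555). In each of these genes the difference from control was largest in batch 3 with both hairpins.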

How the results depend on the processing

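Of 974 values of single genes against control under the alternatives, 926 kept direction and call, 36 lost the call, 9 gained it and 3 changed sign. These values are not independent, because they include the mean of both hairpins beside each hairpin. They also include fits without a library of the hairpin not compared, which leave the fold change nearly the same by design. The sign changes came without batch 3, for Ube2l6 with shRNF185.1 (-0.26) and for the mean of both hairpins (-0.094), and for Mx1 with shRNF185.1 (-0.15). The genes called with shRNF185.3 were 9 of 10, where 27.3% of the genes tested were called. They numbered 5 after summing a group's libraries within each batch (20.1% of the genes tested) and 4 without batch 3 (17.4%). Between the hairpins 0 were called (14.7% of the genes tested). Limma on log2 of CPM plus 1 called 1 (15.4%), and so did the fit without batch 3 (12.5%). Without batch 1 the difference between hairpins changed sign for Isg15 (0.18), Usp18 (0.22), Rsad2 (0.081) and Mx2 (0.54), without batch 2 for Uba7 (-0.079), and without batch 3 for Uba7 (-0.011) and Bst2 (-0.53). Leaving out single libraries, it ranged from -0.53 to 1.37 for Bst2, from -0.47 to 0.018 for Isg15, from -0.30 to 0.17 for Mx2 and from -0.015 to 0.14 for Uba7. The number of genes with an effect that differed between batches stayed between 3 and 5 in alternatives chosen after seeing the data. A minimum count of 50 left Rsad2 and Mx1 untested.

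With the replicate block in edgeR, 7 genes were called with shRNF185.1, where 26.6% of all genes were, and 7 with shRNF185.3, where 25.0% were. Lost with shRNF185.3 were Bst2 (1.89, adjusted p 0.0783) and Mx1 (1.40, adjusted p 0.0739). For the mean of both hairpins 7 were called, where 30.1% of all genes were, Bst2 (1.75, adjusted p 0.0555) being lost. With shRNF185.3, Bst2 and Mx1 were also lost in limma-voom (adjusted p 0.0517 and 0.0544) and with batch as a covariate in edgeR (0.0523 and 0.0789), and Mx1 with every gene of at least 1 count tested (0.0576). Summing lost Usp18 (0.0501), Herc6 (0.0864), Bst2 (0.0927) and Mx1 (0.0878). In deviations from group means, same-numbered libraries of different groups correlated at a mean of -0.01 over 18 pairs (range -0.63 to 0.71). Pairs that shared a batch but not a number had a lower mean, -0.43 over 18 pairs (-0.78 to 0.10). Pairs from different batches had a mean of 0.11 over 72 pairs (-0.68 to 0.78). Only 2 of 18 libraries correlated best with their own number, but that count also draws on pairs from different batches. It cannot exclude pairing by number, which remains possible. The main fit did not pair the libraries, and the replicate block gives the result with pairing.

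Over all genes, 4141 and 3906 were called with the 2 hairpins, or 2207 and 2120 without batch 1. The count with shRNF185.3 was 2501 without batch 3. For the mean of both hairpins it was 4701, against 2672 without batch 1 and 3106 without batch 3, and between the hairpins 2098, against 753 without batch 1 and 1208 without batch 2. Low counts limit Mx1, Mx2, Rsad2 and Cmpk2, for which a library held 1 to 98 counts.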
